A study of Mus musculus with 15 samples.

Results

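AMPA and NMDA receptors are the ion channels that carry most fast excitatory transmission in the cortex. AMPA receptors are tetramers of the GluA1 to GluA4 subunits, and their calcium permeability depends on whether the edited GluA2 subunit is present. NMDA receptors pair the obligatory GluN1 subunit with glutamate-binding GluN2 subunits or glycine-binding GluN3 subunits, and the GluN2 type sets magnesium block and decay time. Parvalbumin (Pv) neurons are fast-spiking inhibitory cells that express calcium-permeable, GluA1- and GluA4-rich AMPA receptors, and thyroid hormone, acting through nuclear receptors such as TRα1, is needed for their maturation.

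The 10 subunit genes described here were Gria1, Gria2, Gria3, Gria4, Grin1, Grin2a, Grin2b, Grin2c, Grin2d and Grin3a, taken by symbol. All 10 were present in each of 15 count tables, among 46380 gene symbols that the tables shared, and all 10 passed the filter on low counts in every comparison. The tables hold reads per gene from nuclear RNA of sorted fluorescent nuclei, each from the cortex of 1 adult mouse. All mice carried PvCre and the ROSA-tomato-lox reporter, so the Pv-Cre driver decided which nuclei were fluorescent. PTU+TH mice (n = 4, Thra+/+) ate pellets with propylthiouracil (PTU), a blocker of thyroid hormone synthesis, for 2 weeks, and were injected intraperitoneally with thyroid hormone (TH) 24 h before dissection. PTU mice (n = 3, Thra+/+) had the diet for 2 weeks with no injection. Mut mice (n = 4, ThraAMI/+) carried 1 copy of the floxed ThraAMI allele, which gives the dominant negative receptor TRα1 L400R, and were untreated littermates of the Ctrl mice (n = 4, Thra+/+, untreated). In these bulk libraries, fewer nuclei of a type and less RNA per nucleus cannot be told apart.

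Library totals ran from 12957838 to 32571175 counts. The summed level of 8 Pv neuron markers was 5682 to 9527 CPM (counts per 1000000 counts of the library) across libraries, that of 8 excitatory neuron markers 187 to 286 CPM, and that of 5 astrocyte markers 5.30 to 30.04 CPM. Pvalb itself had 145, 125, 120 and 143 CPM in the PTU+TH libraries and 96.96, 91.5 and 109 CPM in the PTU libraries. Mut libraries held 63.8, 95.8, 66.7 and 85.3 CPM of it, against 110, 136, 118 and 113 CPM in Ctrl libraries. Its log2 fold change was 0.47 ± 0.12 for PTU+TH over PTU (edgeR adjusted p = 0.277) and -0.63 ± 0.13 for Mut over Ctrl (adjusted p = 0.078); the part of these Pvalb levels in the subunit values was not tested. Thra, the targeted gene, was lower in Mut than in Ctrl libraries, with a log2 fold change of -0.84 ± 0.14 (edgeR adjusted p = 0.028); counts per gene do not show the point mutation. Within every group, libraries differed in the percent of counts that fell in genes over 100 kb long, from 24.9% to 40.7% over the 15 libraries. Y-linked genes were counted at over 50 CPM in 2 of 4 PTU+TH, 2 of 3 PTU, 3 of 4 Mut and 1 of 4 Ctrl libraries. The tables came in 2 sets, with 55341 genes for PTU+TH and PTU and 48321 for Mut and Ctrl, so a comparison of either PTU group with Ctrl also compares the sets, and the diet and the set cannot be told apart there.

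The 4 AMPA subunit genes stood above the 6 NMDA subunit genes in level per kilobase of exon, in every group. The order within each family depends on that length scaling. In plain CPM, Gria2 had the highest mean in every group, at 1573 CPM in Ctrl libraries, against 1148 for Gria1 and 1152 for Gria4. Grin2b averaged above Grin2a in CPM in PTU libraries (575 against 542) and in Mut libraries (590 against 510). As CPM per exonic kilobase (RPKM), the Ctrl libraries had 190 ± 29.95 RPKM of Gria1 and 183 ± 28.7 RPKM of Gria4 (SD, n = 4), whose ranges overlapped. Gria2, at 101 ± 8.47 RPKM, and Gria3, at 83.5 ± 6.34 RPKM, followed, each apart from its neighbours in the order. A middle tier of 3 NMDA subunits overlapped among neighbours, with Grin2a at 36.7 ± 8.07, Grin1 at 29.1 ± 3.35 and Grin2b at 25.9 ± 4.36 RPKM. The lowest levels were those of Grin2d, at 4.88 ± 0.72, Grin3a, at 1.504 ± 0.11, and Grin2c, at 0.717 ± 0.31 RPKM, each apart from the next. The first 4 and the tier of 3 held the same places in all groups, except that Grin1 stood above Grin2a in PTU libraries, with overlapping ranges, and that Gria4, Gria2 and Gria3 overlapped between neighbours in PTU+TH libraries. At the low end the order changed, because Grin2c averaged 1.93 ± 0.09 RPKM in PTU+TH libraries, against 1.70 ± 0.20 RPKM for Grin3a, and those ranges overlapped. In PTU libraries, Grin3a at 1.504 ± 0.28 and Grin2c at 1.47 ± 0.21 RPKM overlapped too.

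**Figure D1:**
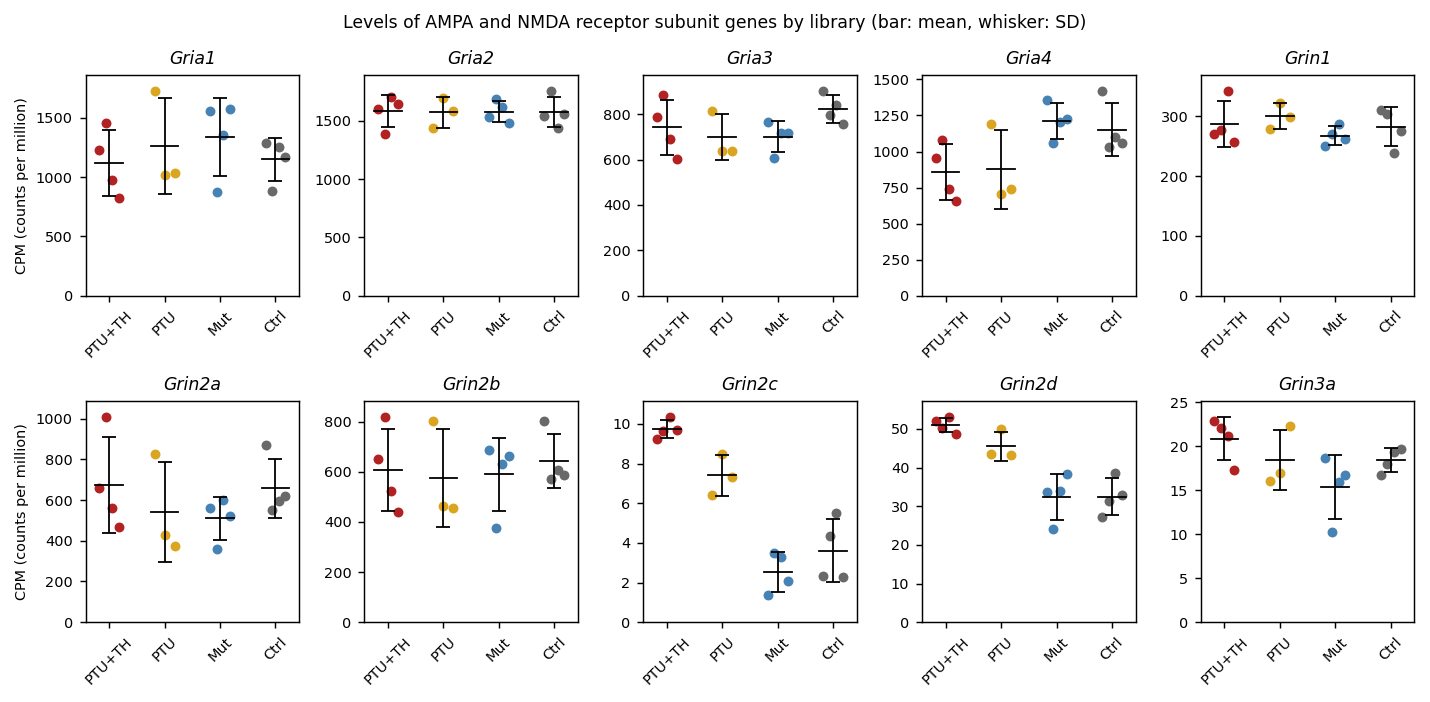
Level of each subunit gene in CPM (linear axis from 0) in every library, with points for libraries, a bar for the group mean and whiskers for the SD (n = 4 PTU+TH, 3 PTU, 4 Mut and 4 Ctrl). The groups overlap for most genes, while Grin2c and Grin2d sit higher in all PTU+TH and PTU libraries than in any Ctrl library.

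Within each table set, none of the 10 subunit genes passed the test, neither after the hormone injection nor in mice with the mutant receptor. In PTU+TH against PTU libraries, 0 of 10 had an adjusted p under 0.05 by edgeR's quasi-likelihood test over all genes, against 0.281% of 15288 genes tested; 8 of the 10 log2 fold changes were positive and their median was 0.13, beside -0.0029 over all genes. In Mut against Ctrl libraries, 0 of 10 passed, against 0.348% of 16949 genes tested; 8 of the 10 were negative and the median was -0.11, beside 0.014 over all genes. The range of CPM did not overlap between PTU+TH and PTU libraries for 1 member, Grin2c, against 7.25% of genes tested. All 10 members overlapped between Mut and Ctrl libraries, where 5.89% of genes tested did not. At an unadjusted p under 0.05, 1126 genes were reached in the first comparison and 1481 in the second.

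Among the AMPA subunits, Gria2, which encodes the GluA2 subunit that limits calcium entry, was at about the same level in all groups. It had 1599, 1390, 1701 and 1645 CPM in PTU+TH libraries and 1436, 1694 and 1582 CPM in PTU libraries. In Mut libraries it had 1528, 1687, 1613 and 1479 CPM, and in Ctrl libraries 1543, 1755, 1439 and 1556 CPM. All 4 groups overlapped and their means lay within 1571 to 1584 CPM. The log2 fold change was 0.05 ± 0.16 (SE) for PTU+TH over PTU, with a 95% interval of -0.31 to 0.41, and -0.01 ± 0.13 for Mut over Ctrl, with an interval of -0.28 to 0.27, so a change within those intervals could not be told from none.

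Gria1, encoding GluA1, and Gria4, encoding the fast GluA4 subunit, spread widely within groups. Gria1 had 1228, 1451, 973 and 826 CPM in PTU+TH libraries and 1725, 1020 and 1033 CPM in PTU libraries, and 1560, 873, 1352 and 1573 CPM in Mut libraries and 1284, 885, 1249 and 1172 CPM in Ctrl libraries. In each of PTU, Mut and Ctrl, 1 library stood apart from the others, high in PTU and low in Mut and Ctrl, and the groups overlapped. The log2 fold change of Gria1 was -0.13 ± 0.32 for PTU+TH over PTU (95% interval -0.87 to 0.60) and 0.22 ± 0.22 for Mut over Ctrl (95% interval -0.26 to 0.69). Gria4 had 958, 1079, 742 and 655 CPM in PTU+TH libraries and 1194, 703 and 738 CPM in PTU libraries, against 1359, 1058, 1202 and 1228 CPM in Mut libraries and 1420, 1030, 1100 and 1059 CPM in Ctrl libraries. It too overlapped between the groups of each pair, and its highest values within each group came from PTU+TH replicates 1 and 2, PTU replicate 5, Mut replicate 1 and Ctrl replicate 1. Its log2 fold change was 0.0035 ± 0.31 for PTU+TH over PTU (95% interval -0.70 to 0.71) and 0.06 ± 0.17 for Mut over Ctrl (95% interval -0.30 to 0.42).

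Gria3, the X-linked gene of GluA3, had 787, 884, 692 and 604 CPM in PTU+TH libraries and 814, 638 and 640 CPM in PTU libraries. It had 765, 606, 716 and 715 CPM in Mut libraries, against 902, 795, 839 and 756 CPM in Ctrl libraries. The Mut values were mostly below those of Ctrl, but Mut replicate 1 lay above the lowest Ctrl library. The log2 fold change was -0.24 ± 0.14 for Mut over Ctrl (edgeR adjusted p = 0.715, 95% interval -0.55 to 0.06) and 0.13 ± 0.23 for PTU+TH over PTU (adjusted p = 0.9996, 95% interval -0.40 to 0.66).

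In the make-up of the AMPA subunit pool, only the Gria3 share did not overlap between the groups within a table set. As a share of the summed Gria1 to Gria4 level per exonic kilobase, Gria3 made up 11.9, 12.7, 12.3 and 11.7% in Mut libraries, against 14.6, 16.02, 15.2 and 14.2% in Ctrl libraries. The Mut shares were all below the Ctrl shares. In PTU+TH libraries the Gria3 share was 14.8, 15.2, 15.3 and 15.03%, against 12.7, 14.3 and 14.3% in PTU libraries. Here the PTU+TH shares were all above the PTU shares, and both separations were present on plain counts too. No other AMPA share separated Mut from Ctrl or PTU+TH from PTU. The Gria2 share, which ranged from 14.2% to 26.0% over all libraries, overlapped in every pair of groups compared. Of the AMPA and GluN2 shares per exonic kilobase, 1 was lower in Mut than in Ctrl libraries without overlap and 7 overlapped. Between PTU+TH and PTU libraries, 1 was higher, 1 was lower and 6 overlapped. On CPM, the ranges of 5.89% of genes tested did not overlap between Mut and Ctrl libraries, and 7.25% between PTU+TH and PTU libraries. No such background is given for shares, so these counts do not set the subunits apart from other genes. These shares are a description with no test, and the share of one subunit also moves when the other 3 do. Mut and Ctrl libraries also differed in Y-linked counts, and the part of sex in the share of this X-linked gene, Gria3, was not tested.

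**Figure D2:**
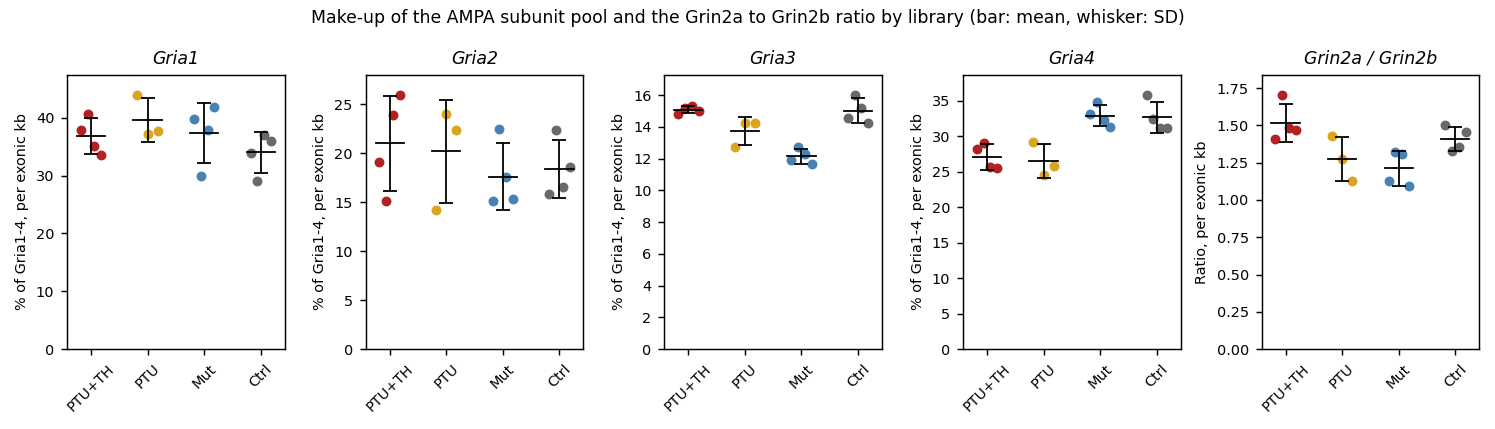
Share of each AMPA subunit in the summed Gria1 to Gria4 level per exonic kilobase (first 4 panels, percent) and the Grin2a to Grin2b ratio per exonic kilobase (last panel), with points for libraries, a bar for the group mean and whiskers for the SD. The Gria3 share of every Mut library is under that of every Ctrl library, and that of every PTU+TH library is over that of every PTU library.

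Of the NMDA subunits, Grin1, which encodes the obligatory GluN1, had 271, 277, 342 and 258 CPM in PTU+TH libraries and 279, 322 and 299 CPM in PTU libraries, and 250, 270, 287 and 262 CPM in Mut libraries and 310, 303, 239 and 276 CPM in Ctrl libraries. The groups overlapped throughout. Its log2 fold change was -0.02 ± 0.14 for PTU+TH over PTU (95% interval -0.34 to 0.30) and -0.09 ± 0.12 for Mut over Ctrl (95% interval -0.36 to 0.18). Grin1 shares 13.5% of its exonic bases with the antisense gene Grin1os, and as the use of strand in counting is not stated in the labels, reads of the pair cannot be told apart.

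Grin2a and Grin2b encode GluN2A and GluN2B, the main GluN2 subunits of adult and of early cortex. Grin2a had 661, 1007, 561 and 468 CPM in PTU+TH libraries and 825, 428 and 372 CPM in PTU libraries, and 559, 358, 599 and 524 CPM in Mut libraries and 871, 549, 596 and 618 CPM in Ctrl libraries. PTU replicate 5 stood far above the other PTU libraries, and the groups of each pair overlapped. The log2 fold change of Grin2a was 0.35 ± 0.40 for PTU+TH over PTU (edgeR adjusted p = 0.984, 95% interval -0.56 to 1.26) and -0.38 ± 0.21 for Mut over Ctrl (adjusted p = 0.69, 95% interval -0.84 to 0.08). Grin2b had 650, 818, 525 and 441 CPM in PTU+TH libraries and 802, 465 and 457.6 CPM in PTU libraries, and 688, 376, 633 and 662 CPM in Mut libraries and 805, 573, 609 and 587 CPM in Ctrl libraries. Its groups overlapped as well, with the same libraries high and low as for Grin2a in the PTU+TH and PTU groups. The log2 fold change of Grin2b was 0.12 ± 0.33 for PTU+TH over PTU (95% interval -0.64 to 0.88) and -0.13 ± 0.22 for Mut over Ctrl (95% interval -0.61 to 0.34).

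The ratio of Grin2a to Grin2b per exonic kilobase was steadier than either level. It was 1.41, 1.704, 1.48 and 1.47 in PTU+TH libraries and 1.43, 1.27 and 1.13 in PTU libraries, which overlapped through PTU replicate 5. In Mut libraries the ratio was 1.12, 1.32, 1.31 and 1.096, against 1.5, 1.33, 1.36 and 1.46 in Ctrl libraries. All Mut ratios lay under all Ctrl ratios, with the nearest pair, Mut replicate 2 and Ctrl replicate 2, only just apart. The separate shares of Grin2a (47.1% to 51.7% in Mut, 51.4% to 56.8% in Ctrl libraries) and Grin2b (38.4% to 43.2% in Mut, 37.2% to 39.0% in Ctrl libraries) among the 4 GluN2 genes overlapped per exonic kilobase. On plain counts the Grin2a share was 42.7% to 47.2% in Mut libraries, just below the 47.4% to 51.1% of Ctrl libraries, and the Grin2b share still overlapped. Among the 4 GluN2 genes, the share of Grin2b per exonic kilobase was 33.4% to 36.0% in PTU+TH libraries, below the 36.2% to 39.1% in PTU libraries with no overlap. Like the AMPA shares, these ratios and shares carry no test.

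Grin2c and Grin2d encode GluN2C and GluN2D, subunits with weak magnesium block, and GluN2D is known from cortical interneurons. Grin2c had 9.24, 9.66, 10.3 and 9.68 CPM in PTU+TH libraries, above the 6.41, 8.5 and 7.31 CPM in PTU libraries, with no overlap. It had 1.36, 3.49, 3.29 and 2.07 CPM in Mut libraries and 2.33, 4.33, 5.497 and 2.29 CPM in Ctrl libraries, which overlapped. These levels rest on few reads, 129 to 185 counts in PTU+TH, 99 to 123 in PTU, 34 to 107 in Mut and 57 to 138 in Ctrl libraries. The log2 fold change of Grin2c was 0.44 ± 0.16 for PTU+TH over PTU, higher in 4 of 4 PTU+TH libraries than in any PTU library, but its edgeR adjusted p was 0.532 (95% interval 0.07 to 0.81). For Mut over Ctrl it was -0.51 ± 0.39 (adjusted p = 0.827, 95% interval -1.38 to 0.35).

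Grin2d had 51.99, 50.2, 53.02 and 48.7 CPM in PTU+TH libraries and 43.5, 49.9 and 43.3 CPM in PTU libraries, and 33.6, 24.1, 33.99 and 38.2 CPM in Mut libraries and 27.2, 31.3, 38.7 and 32.8 CPM in Ctrl libraries. The groups within each pair overlapped. Its log2 fold change was 0.21 ± 0.11 for PTU+TH over PTU (95% interval -0.05 to 0.46) and -0.0019 ± 0.18 for Mut over Ctrl (95% interval -0.39 to 0.39). Grin2d shares 9.66% of its exonic bases with the antisense gene Gm45441, whose reads cannot be told apart from its own for the same reason as for Grin1.

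Grin3a encodes GluN3A, which lowers calcium flux through the receptors it joins. It had 22.8, 22.2, 21.1 and 17.4 CPM in PTU+TH libraries and 16.1, 16.9 and 22.3 CPM in PTU libraries, and 18.7, 10.3, 15.96 and 16.7 CPM in Mut libraries and 16.7, 17.99, 19.4 and 19.7 CPM in Ctrl libraries. The groups overlapped, although Mut replicate 2 fell far under the rest. Its log2 fold change was 0.23 ± 0.18 for PTU+TH over PTU (95% interval -0.17 to 0.64) and -0.26 ± 0.21 for Mut over Ctrl (95% interval -0.72 to 0.20).

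Set against Ctrl across the table sets, Grin2c and Grin2d were the subunit genes whose CPM was higher in every PTU+TH and PTU library. Diet and set cannot be told apart in these comparisons. Whether both sets counted the bases that Grin2d shares with Gm45441 alike was not tested. In PTU+TH over Ctrl, 2 of 10 members were called, both higher, against 17.8% of 15814 genes tested. Grin2c rose with a log2 fold change of 1.42 ± 0.28 (edgeR adjusted p = 0.00285) and Grin2d with one of 0.64 ± 0.12 (adjusted p = 0.0025). Every PTU+TH library lay above every Ctrl library for these 2 genes, against 21.6% of genes tested whose ranges did not overlap, and both calls held when any 1 of the 8 libraries was left out. The share of members called is near that background, so it is not a result about the family. In PTU over Ctrl, 0 of 10 were called, against 17.0% of 16496 genes tested. Grin2c, at 1.00 ± 0.33 (adjusted p = 0.0582), and Grin2d, at 0.45 ± 0.15 (adjusted p = 0.0556), were just short of the threshold, and again their ranges did not overlap with those of Ctrl, against 26.0% of genes tested. In PTU over Ctrl without PTU replicate 5, 3 members passed, Gria4, Grin2a and Grin2b, all lower. They were at -0.78, -0.82 and -0.58 (edgeR adjusted p = 0.0155, 0.0224 and 0.0474). Over all genes, 4283 passed in that fit, the most of any with 1 library left out (2061 to 4283). The PTU libraries left in it had 25.7% and 25.8% of counts in genes over 100 kb, below the 29.5% to 39.7% of Ctrl libraries. Without Ctrl replicate 3, 2 members passed, Grin2c and Grin2d, at 1.27 and 0.54 (adjusted p = 0.0244 and 0.0392). As at least 2061 genes passed in every fit with 1 library left out, these member counts are not a result about the family. The other 8 members overlapped with Ctrl in both comparisons and did not pass, among them Gria4, with -0.43 ± 0.22 for PTU+TH over Ctrl (adjusted p = 0.214) and -0.42 ± 0.25 for PTU over Ctrl (adjusted p = 0.308). For the 7 others, log2 fold changes were -0.16 to 0.17 in PTU+TH over Ctrl and -0.30 to 0.11 in PTU over Ctrl. Both comparisons use the same 4 Ctrl libraries. The summed cell markers mostly overlapped between these groups. The summed level of 5 oligodendrocyte and precursor markers was 65.5 to 175 CPM in PTU+TH libraries and 102.5 to 174 CPM in PTU libraries, against 81.4 to 102.8 CPM in Ctrl libraries. That of the 8 excitatory neuron markers was 239 to 268, 259 to 286 and 205 to 245 CPM in the same order. That of the 8 Pv neuron markers was 5824 to 7215, 5682 to 7479 and 7073 to 9100 CPM. Of these sums, only the excitatory one of PTU libraries lay apart from Ctrl. None of these markers was at 0, but 5 of the excitatory markers averaged under 5 CPM in each group, as did 2, 2 and 3 of the oligodendrocyte markers. Of the oligodendrocyte markers, Mbp, a myelin protein gene, rose in PTU over Ctrl (0.62 ± 0.12, edgeR adjusted p = 0.00324) and had 0.49 ± 0.21 in PTU+TH over Ctrl (adjusted p = 0.138). The part of these cells in the subunit values was not tested.

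The Gria4 share of the AMPA pool per exonic kilobase was 25.5% to 29.0% in PTU+TH libraries and 24.6% to 29.1% in PTU libraries, both below the 31.2% to 35.8% of Ctrl libraries. On plain counts the PTU+TH and Ctrl shares of Gria4 were still apart, but those of PTU, up to 23.10%, and Ctrl, from 23.08%, overlapped. Per exonic kilobase, the Gria1 share was 37.2% to 43.9% in PTU libraries, above the 29.1% to 37.0% of Ctrl libraries, and the Grin2b share of the GluN2 genes was 33.4% to 36.0% in PTU+TH libraries, below the 37.2% to 39.0% of Ctrl libraries; both overlapped on plain counts. The Grin2c share of the GluN2 genes was 1.95% to 3.62% in PTU+TH libraries, above the 0.541% to 1.69% of Ctrl libraries. These separations cross the table sets as well.

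**Figure D3:**
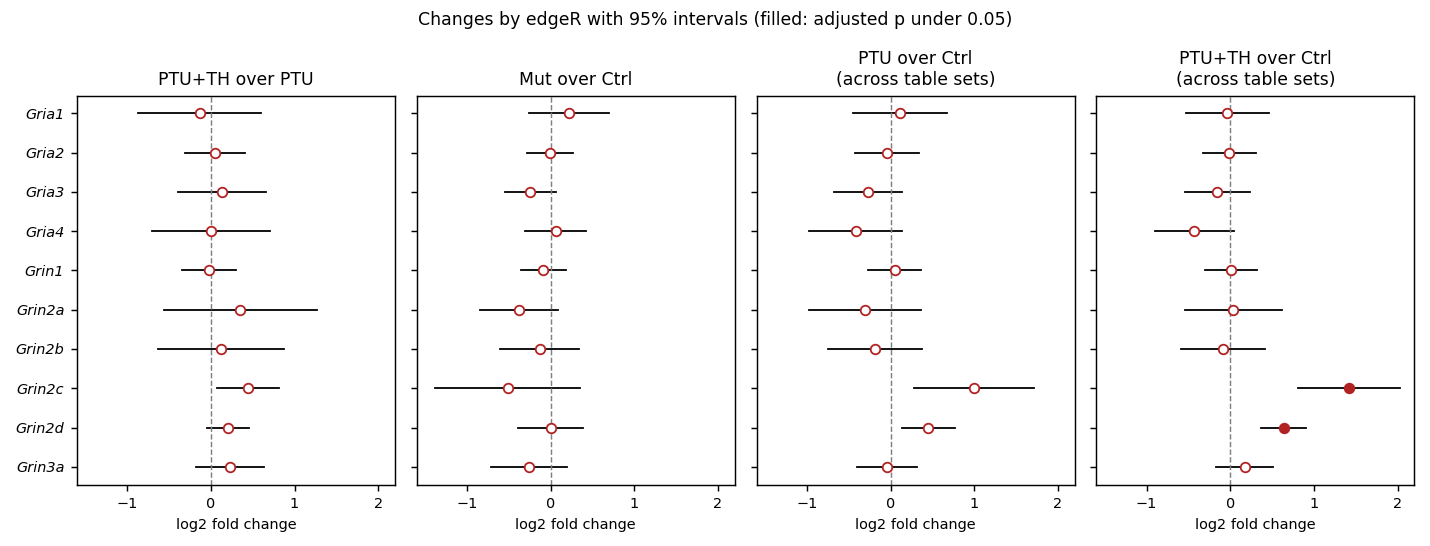
log2 fold change of each subunit gene by edgeR in 4 comparisons, with 95% confidence intervals as lines and filled points for an adjusted p under 0.05. No gene is filled within a table set (first 2 panels), while Grin2c and Grin2d are filled for PTU+TH over Ctrl, across sets, at 1.42 and 0.64.

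The upstream sequences of Grin2c and Gria4, the members with the highest and the most negative log2 fold change in PTU+TH over Ctrl, are shown from RefSeq on build GRCm38.p6. Of the 10 members, 5 had a promoter entry (Gria2, Gria4, Grin1, Grin2c and Grin2d). The Grin2d window lies inside the span of the gene in GENCODE M21 and is not printed. Each line gives the 250 bases before the start of the gene, 5′ to 3′ on its own minus strand, for Grin2c chr11:115267244-115267493 and for Gria4 chr9:4796235-4796484. In GENCODE M21 on GRCm38, Grin2c spans chr11:115249169-115267243 and Gria4 chr9:4417896-4796234, so both windows lie just outside the annotated gene. Capitals mark AGGTCA, the half-site that thyroid hormone receptors are known to bind, and GGGCGG, the GC box, searched on both strands.
Grin2c: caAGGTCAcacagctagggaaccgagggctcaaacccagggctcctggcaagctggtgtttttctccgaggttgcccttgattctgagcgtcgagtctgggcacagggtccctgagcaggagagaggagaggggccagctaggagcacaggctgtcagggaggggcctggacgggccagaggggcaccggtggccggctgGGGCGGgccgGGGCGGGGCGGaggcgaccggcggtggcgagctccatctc
Gria4: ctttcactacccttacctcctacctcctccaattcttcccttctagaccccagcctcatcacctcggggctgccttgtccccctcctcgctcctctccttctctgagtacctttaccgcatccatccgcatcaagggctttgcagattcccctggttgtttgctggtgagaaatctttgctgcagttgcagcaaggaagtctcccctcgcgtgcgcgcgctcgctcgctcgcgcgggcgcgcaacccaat
Grin2c held 1 AGGTCA, at the far end of the window, and 3 GGGCGG close to the start, of which a pair shares a base; Gria4 held neither. Of 32851 promoter windows of the same length, 14.0% held AGGTCA and 32.7% held GGGCGG. Bases G and C made up 68.8% of the Grin2c window and 58.8% of the Gria4 window, beside a median of 52.4% over all windows. The other 3 windows held neither motif. A match is a string of letters and not a shown binding site, and the lack of one says only that these letters are not in this window.

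The levels of the longest subunit genes followed how much of a library lay in long genes. Gria1, Gria3, Gria4, Grin2a and Grin2b span 278 to 460 kb, Gria2 121 kb and Grin3a 184 kb, while Grin1, Grin2c and Grin2d span 18.1 to 46.5 kb (GENCODE M21, GRCm38). Over the 8 Mut and Ctrl libraries, with each group centred on its mean, the Pearson correlation with the percent of counts in genes over 100 kb was 0.97 for Gria4 (Spearman's rho 0.98), 0.95 for Grin2a (rho 0.95), 0.93 for Grin2b (rho 0.98), 0.92 for Gria3 (rho 0.98) and 0.84 for Gria1 (rho 0.79). For these 5 genes the exact permutation p of Pearson's r, from all 576 orders within groups, two-sided and adjusted over the 10 members, was 0.0174, 0.0312, 0.0174, 0.0217 and 0.0217 in that order. With Spearman's rho the exact adjusted p was 0.0289, 0.0391, 0.0289, 0.0289 and 0.059, so that of Gria1 missed the threshold. Without the 2 libraries farthest from the median share, r of these 5 genes stayed between 0.83 and 0.95. With 1 library left out, r ranged from 0.95 to 0.98 for Gria4, 0.92 to 0.99 for Grin2a, 0.92 to 0.98 for Grin2b, 0.85 to 0.95 for Gria3 and 0.70 to 0.96 for Gria1. The members' own counts are part of the share, and all points share their library totals.

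The remaining 5 genes did not pass that test. Gria2 had r = -0.58 (rho -0.50, exact permutation adjusted p = 0.273), in the other direction from the rest of its family, and Grin2c had r = -0.59 (rho -0.48, adjusted p = 0.273). Grin3a had r = 0.51, Grin2d 0.24 and Grin1 0.09. Across all genes the same correlation followed length, with a median r of 0.60 over 2500 genes longer than 100 kb, 0.11 over 2298 genes of 50 to 100 kb and -0.44 over 11556 shorter genes. Gria2 thus went against most genes of its length class, 81.3% of which had a positive r.

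The PTU+TH and PTU libraries fell into separate clusters of the long-gene share, so no correlation is given for them. PTU+TH replicates 1 and 2 and PTU replicate 5 had 34.1% to 40.7% of counts in genes over 100 kb, and the other 4 libraries 24.9% to 28.4%. The 3 libraries of high share were those with no Y-linked counts in that set. Gria1, Gria3, Gria4, Grin2a and Grin2b were all higher in the 3 than in the 4, without overlap, with ratios of means of 1.52, 1.29, 1.52, 1.82 and 1.60. Gria2 had a ratio of 0.891, and it and the other 4 genes overlapped between the clusters. Sex and the long-gene share cannot be told apart in these 7 libraries.

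**Figure D4:**
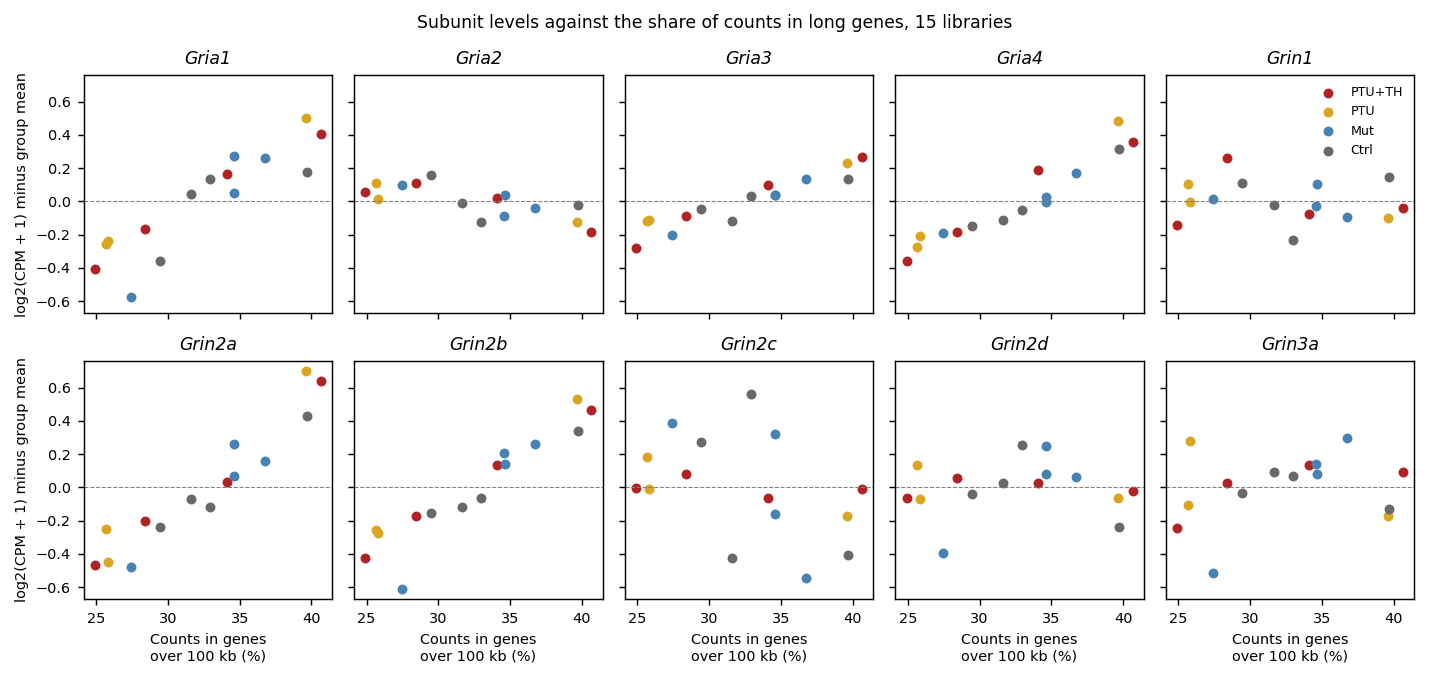
log2(CPM + 1) of each subunit gene minus its group mean, against the percent of the library's counts in genes over 100 kb, for all 15 libraries coloured by group. Gria1, Gria3, Gria4, Grin2a and Grin2b climb with the share, with r of 0.84 to 0.97 over the Mut and Ctrl libraries, while Gria2 slopes downward (r = -0.58) and Grin1 has no visible trend.

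With the long-gene share as a covariate in the edgeR fit, the standard errors of the long members shrank and some differences passed. The shrinkage was not confined to long members. In PTU+TH over PTU the standard error went from 0.32 to 0.06 for Gria1, from 0.14 to 0.09 for the short gene Grin1 and from 0.16 to 0.17 for Grin2c. In PTU+TH over PTU, 2 of 10 members were called, against 6.61% of genes tested. Grin2a rose, with a log2 fold change of 0.24 ± 0.07 (adjusted p = 0.0425), and Gria1 fell, with one of -0.23 ± 0.06 (adjusted p = 0.0221). No member passed with this covariate when PTU+TH replicate 2, PTU replicate 5 or PTU replicate 7 was left out. In Mut over Ctrl, 0 of 10 passed, against 1.24% of genes tested; Grin2a had -0.37 ± 0.09 (adjusted p = 0.071) and Gria3 -0.24 ± 0.07 (adjusted p = 0.166). In PTU over Ctrl, 3 of 10 passed, against 24.3% of genes tested, Gria4 lower at -0.27 ± 0.08 (adjusted p = 0.0171) and Grin2c and Grin2d higher, with adjusted p of 0.0493 and 0.0314; none passed without PTU replicate 5 or PTU replicate 6. In PTU+TH over Ctrl the same 3 genes passed, against 28.7% of genes tested, with Gria4 at -0.37 ± 0.07 (adjusted p = 0.000837), and 3 members passed whichever library was left out.

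Genes that act with these receptors gave no calls within a table set. In PTU+TH against PTU and in Mut against Ctrl, edgeR called 0 members of each of 5 lists, which held auxiliary AMPA subunits, genes of AMPA receptor anchoring, clustering and editing, postsynaptic scaffolds, kainate and delta receptors, and metabotropic glutamate receptors. For the auxiliary subunits, 12 genes whose proteins join AMPA receptors and set their gating and traffic, the median log2 fold change was -0.15 in PTU+TH over PTU and 0.29 in Mut over Ctrl, beside -0.0029 and 0.014 over all genes. The cornichon gene Cnih3 had -0.57 ± 0.17 in PTU+TH over PTU (adjusted p = 0.396) and 0.80 ± 0.18 in Mut over Ctrl (adjusted p = 0.106). Gsg1l, which encodes an auxiliary subunit that dampens AMPA currents, had -0.52 ± 0.13 in PTU+TH over PTU (adjusted p = 0.272), and Cacng3, encoding TARP γ-3, had 0.44 ± 0.16 in Mut over Ctrl (adjusted p = 0.38). Adarb1, whose enzyme edits the GluA2 transcript at its pore site, had 0.42 ± 0.20 in PTU+TH over PTU (adjusted p = 0.719) and -0.51 ± 0.18 in Mut over Ctrl (adjusted p = 0.354).

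In the other lists the smallest p-values within a set belonged to genes that did not pass either. For PTU+TH over PTU, the log2 fold change was 0.62 ± 0.34 for the pentraxin Nptx1, 0.57 ± 0.16 for the scaffold Homer2, 0.35 ± 0.13 for Dlg4 (PSD-95) and 0.43 ± 0.30 for the kainate subunit Grik3. The kainate auxiliary gene Neto2 had 0.25 ± 0.13, and the presynaptic receptor genes Grm4 and Grm2 had 0.50 ± 0.21 and -0.67 ± 0.50. Adjusted p-values of these 7 genes ran from 0.361 to 0.942. For Mut over Ctrl, Neto2 came nearest, with -0.61 ± 0.12 (edgeR adjusted p = 0.065). The pentraxin Nptx2 had 1.03 ± 0.39, Shank1 -0.34 ± 0.19, Homer2 -0.40 ± 0.23 and Grm3 0.41 ± 0.17 there, with adjusted p-values from 0.433 to 0.705. The summed level of 7 markers of other interneurons, whose part in these values was not tested, was 171 to 294 CPM in Mut libraries, above the 136 to 161 CPM in Ctrl libraries, and none of the 7 was at 0.

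Across the sets, calls among these lists are read beside 17.0% of all genes tested in PTU over Ctrl and 17.8% in PTU+TH over Ctrl. In PTU over Ctrl, 3 of 12 auxiliary subunit genes rose and 1 fell: Cacng5 (1.86 ± 0.50), Cnih2 (0.62 ± 0.19) and Cnih3 (0.56 ± 0.17) were higher and Cacng3 (-0.54 ± 0.16) lower, with edgeR adjusted p from 0.0233 to 0.0461. In PTU+TH over Ctrl, 1 of the 12 rose and 2 fell: Cacng5 rose (2.42 ± 0.49) and Cacng3 (-0.63 ± 0.18) and Gsg1l (-0.45 ± 0.13) fell, with adjusted p from 0.00342 to 0.0318. Cacng5 rests on very few reads, 4 to 16 counts in Ctrl, 16 to 26 in PTU and 19 to 50 in PTU+TH libraries. Also in PTU+TH over Ctrl, the pentraxin Nptx1 (0.92 ± 0.26) and Grm4 (0.96 ± 0.18) rose and Dlg1 (SAP97, -0.42 ± 0.12), which binds GluA1, fell. None of the 15 scaffold genes and none of the 9 kainate and delta receptor genes was called in either; among those with the smallest p-values were Homer1 (-0.37 ± 0.13), Homer3 (1.02 ± 0.37) and Grik2 (-0.53 ± 0.30) for PTU over Ctrl, and Homer1 (-0.30 ± 0.11), Dlg3 (0.37 ± 0.16), Grik3 (0.48 ± 0.23) and Grik2 (-0.55 ± 0.28) for PTU+TH over Ctrl. Of the metabotropic receptors in PTU over Ctrl, Grm2 had 1.22 ± 0.40 and Grm8 -0.77 ± 0.34, neither called. Pick1, which binds GluA2 and GluA3, was called lower in both. It had 0, 0.418, 0.849 and 0.591 CPM in PTU+TH libraries and 0.0647, 0.276 and 0.329 CPM in PTU libraries, against 119, 160, 152 and 141 CPM in Mut libraries and 122, 141, 125 and 126 CPM in Ctrl libraries. It was near 0 in all 7 libraries of one set and above 100 CPM in all 8 of the other, and diet and set cannot be told apart here either.

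Genes whose levels tracked each subunit most closely over the 15 libraries, with groups centred and out of 10041 genes, are given as a description with no p. The closest to Gria1 were Dnm3 and Klhl29 (r = 0.99 each), to Gria3 Cdh18 and Mitf (0.98 each), to Gria4 Ccser1 and Dlg2 (0.99 each), to Grin2a Atrnl1 and Cacna1d (0.98 each) and to Grin2b Runx2 (1.00) and Hivep3 (0.99). Those of Gria2 were Hgh1 and Abtb1 (0.95 each), of Grin1 Slc25a27 (0.92), of Grin2c Ino80e (0.87) and Cbll1 (0.85), of Grin2d Adam22 (0.96) and Zmat5 (0.95) and of Grin3a Tvp23a (0.90) and Fbxl18 (0.88). Between members, Gria1 and Gria2 moved in opposite directions (r = -0.85). All pairs among Gria1, Gria3, Gria4, Grin2a and Grin2b moved together. Their r ran from 0.87 for Gria1 and Gria4 to 0.96 for Grin2a and Grin2b, with Gria3 and Grin2b at 0.95. All of these correlations share library totals and the long-gene structure of the libraries.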

How the data were processed

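Nuclei were sorted from individual frozen cortices, and their RNA was amplified with a SMART-Seq kit, made into Nextera XT libraries and sequenced as single-end 75-base reads, per the labels' protocols. Each library has 1 deposited table of raw counts, for which the submitters' processing notes name Bowtie2 2.5.3, HTSeq and mm10 (GRCm38). The sources used here give neither the annotation release nor the strand setting, and the 2 sets of tables differ in their gene lists. Comparisons across sets used shared symbols. Replicates are separate mice, per the titles. Amplified reads carry no molecular identifiers.

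edgeR 4.0.16 in R 4.3.3 was run on each pair of groups over all genes (filterByExpr with a minimum count of 10, TMM scaling, robust quasi-likelihood test, Benjamini-Hochberg adjustment over all genes tested, calls at an adjusted p under 0.05). The fits were also run on simulated counts with a common dispersion and no long-gene structure, so that run cannot speak to calls that depend on this structure. RPKM used exon lengths from GENCODE M21. Correlations with the long-gene share used log2(CPM + 1) and exact permutation within groups. Alternatives were DESeq2 1.42.0, RLE scaling, no filter, 1 fit of all groups, sex (Y-linked counts over 50 CPM), the long-gene share, the replicate block, genes over 50 kb, a pseudocount of 0.1, shares without length scaling, and leaving out each library; leaving out libraries with the long-gene covariate was added after seeing the data. All 10 members are named, with up to 4 called genes, or else the 2 of smallest p, from each of 5 lists per comparison, and for each member the 2 genes most like it at a mean of at least 5 CPM, leaving out predicted models; a few genes that this rule selects are not reported here. The members and lists were chosen with earlier results of these data known.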

Additional observations from a re-analysis of the deposited data

Results flagged for a closer look

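In Ctrl replicate 1, Grin2b stood far from the other Ctrl libraries, at 804.574 CPM, against 573, 609 and 587 CPM in the remaining 3. Its gap to the nearest of them was 0.846 of the range of the group, over the 95% critical value of Dixon's test for 4 samples. It was the only such value among 30 groups of member values tested, of which chance flags about 1 in 20. The same library had the highest percent of counts in genes over 100 kb among the Ctrl libraries, at 39.7%, and the part of that share in the Grin2b level was not tested.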

How the results depend on the processing

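The number of subunit genes called in PTU+TH over PTU was 0, and 2 with the long-gene share as a covariate. In PTU over Ctrl it was 0, against 2 with DESeq2, 1 with all 4 groups in 1 fit and 3 with the long-gene share, and 0 to 3 when a library was left out. Of all genes tested there, the main fit called 17.0% and the fit with the long-gene share 24.3%. Beside such a background, these member counts are not a result about the family. With that covariate, leaving out a library gave 0 to 2 calls in PTU+TH over PTU and 0 to 4 in PTU over Ctrl. In Mut over Ctrl, no alternative called a member, DESeq2 and the covariate included, and in PTU+TH over Ctrl the alternatives without that covariate, leave-one-out included, called the same number, 2. The number of members that passed with the long-gene share over Mut and Ctrl libraries was 5, and 0 to 5 when a library was left out. Each left-out run has fewer orders to permute than the full one, so its counts cannot be set directly against the full count. Genes also differed within a run. Without Mut replicate 2, the exact permutation adjusted p was 0.556 for Gria1 (r = 0.70) and 0.069 for Gria4 (r = 0.98). The r of the 5 that passed with all libraries stayed positive, at 0.70 to 0.99 over the left-out libraries. It turned sign for some of the others, ranging -0.55 to 0.88 for Grin2d, -0.34 to 0.97 for Grin3a and -0.42 to 0.32 for Grin1. The cause of these shifts was not tested.

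Direction changed for small log2 fold changes that were not called. For Gria4 in PTU+TH over PTU it was -0.0034 with all 4 groups in 1 fit, -0.11 with sex and -0.083 with the long-gene share as covariates. With sex it was 0.11 for Grin2d in Mut over Ctrl, and 0.093 for Gria1, -0.0027 for Grin1 and 0.0064 for Grin2b in PTU+TH over Ctrl, and with the long-gene share 0.0089 for Gria1. Leaving out 1 library, the log2 fold change ran from -0.19 to 0.38 for Gria4, -0.027 to 0.33 for Gria3, -0.13 to 0.53 for Grin2b, -0.35 to 0.25 for Gria1 and -0.094 to 0.058 for Grin1 in PTU+TH over PTU; -0.052 to 0.033 for Gria2, -0.22 to 0.049 for Grin2b, -0.011 to 0.20 for Gria4 and -0.099 to 0.14 for Grin2d in Mut over Ctrl; -0.26 to 0.26 for Gria1, -0.17 to 0.021 for Grin3a and -0.030 to 0.13 for Grin1 in PTU over Ctrl; -0.051 to 0.033 for Gria2, -0.069 to 0.085 for Grin1, -0.29 to 0.23 for Grin2a, -0.24 to 0.11 for Gria1 and -0.32 to 0.072 for Grin2b in PTU+TH over Ctrl.

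Replicate numbers are shared by Mut and Ctrl and by PTU+TH and Ctrl, but nothing says that they pair animals, so the numbers were not taken as pairs. Same-numbered libraries of Mut and Ctrl correlated at 0.20, 0.29, -0.04 and 0.12, and differently numbered ones at -0.23 to 0.18. These few values do not decide whether the numbers pair animals. With the replicate block, 0 members were called in Mut over Ctrl and 2 in PTU+TH over Ctrl, as without it, and Grin2a in PTU+TH over Ctrl turned to -0.029.

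Counts over all genes moved more. In PTU+TH over PTU, 43 calls became 204 with DESeq2, 335 with sex and 1011 with the long-gene share, and 5 to 29 with a library left out. In Mut over Ctrl, 59 became 404 with DESeq2, 196 with all groups in 1 fit, 31 with sex and 210 with the long-gene share, and 11 to 103 with a library left out. In PTU+TH over Ctrl, 2814 became 4536 with the long-gene share, and in PTU over Ctrl, 2804 became 2061 to 4283 with a library left out. Without length scaling the AMPA shares changed, that of Gria2 averaging 37.4%, 36.4%, 33.0% and 33.7% in PTU+TH, PTU, Mut and Ctrl libraries. Depth limits Grin2c most, at 34 to 185 counts a library.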
